A study of Mus musculus with 9 samples.

Results

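The small heat shock proteins Hspb1, Hspb6, Hspb8 and Cryab and the co-chaperone Bag3 were followed across the hippocampus of mice that differed in age and in quercetin treatment. These 5 genes were taken by symbol from a table of 22173 listed genes, 18798 of which had values. All 5 had values in every library, and all 5 passed the filter on low values, which kept 13062 genes. Bulk RNA-seq of C57BL/6 hippocampus gave 9 libraries in 3 groups of 3. The young control mice were 8 weeks old and received PBS with 10% DMSO. The middle-aged control mice were 10 months old and received the same vehicle. The middle-aged quercetin mice, also 10 months old, received quercetin, a plant flavonol, for 24 days according to the labels. The authors give a longer course for the mice of their behaviour tests. According to the methods all mice were female, and quercetin in the same solvent, or the solvent alone, was injected into the tail vein every other day. The labels do not say whether each library came from 1 mouse, so p-values describe the spread between these libraries only.

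Small heat shock proteins share an alpha-crystallin domain, and some form large oligomers. As a family they hold unfolded proteins in a soluble state without using ATP and pass them on to the HSP70 machinery. Bag3 joins this system as a nucleotide exchange factor of HSP70 that also binds small heat shock proteins, with Hspb8 as its best known partner, and it directs damaged clients to autophagy. Transcription of Hspb1, Cryab and Bag3 responds to heat shock factor 1 (HSF1), the master regulator of the heat shock response. In the brain Cryab is abundant in oligodendrocytes, whereas Hspb1 and Hspb6 are known from blood vessels and glia.

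Levels are given as FPKM, which corrects fragment numbers for the length of the gene and for library size, so that genes can be compared within a library. The file holds no read counts, and the depth of the libraries is unknown. The 9 hippocampal neuron markers were all present (Snap25, a synaptic protein, lay between 905 and 1005 FPKM). Transcripts of the choroid plexus, which borders the hippocampus, stood out in a pair of libraries (young control 3, and quercetin 2), with a summed level of 2824 and 1123 FPKM for 10 markers against 49.9 to 86.8 FPKM in the other libraries. In bulk tissue, fewer cells of a type and less RNA per cell cannot be told apart.

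HSF1 binds inverted repeats of short heat shock units, so the RefSeq promoter windows (GRCm38.p6, 250 bases before to 50 bases after each gene start) were searched for paired heat shock element letters. The motifs were GAANNTTC and TTCNNGAA, each of which reads the same on both strands; neighbouring copies can share letters. There were entries for 4 members, with 1 window each for Hspb1, Hspb8 and Bag3 and a pair of windows for Hspb6. Each of the 4 genes held a paired motif, Hspb6 in the window of its downstream start and not in that of its upstream start, and each held the spelling GAAGTTTC. At least one of the pairs occurred in 15.1% of all 32851 windows, and GAAGTTTC on either strand in 1.21%, a spelling picked because these genes share it. The longer element of 3 units, in which GAANNTTC and TTCNNGAA share 3 letters in either order, was in none of the 4 genes, in 4 of 17 HSF1 targets with a window and in 0.603% of all windows. In Hspb1 the letters began 117 bases before the start, with a pair of another spelling at 97 bases. In Hspb6 they began 120 bases before its downstream start. In Hspb8 and Bag3 they lay just after the start, at 2 and 42 bases. The stretches of Hspb1 (chr5:135887779-135887858) and Hspb6 (chr7:30553161-30553240), both on the plus strand and both from 140 to 61 bases before the start, are shown because the letters sit at nearly the same place in these genes, whose levels ran apart after quercetin; capitals mark the paired letters.
Hspb1: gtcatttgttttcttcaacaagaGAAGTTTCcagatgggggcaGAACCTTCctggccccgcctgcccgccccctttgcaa
Hspb6: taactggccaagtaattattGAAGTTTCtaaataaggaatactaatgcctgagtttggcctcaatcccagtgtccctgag
Of the 17 HSF1 targets described further on that had a window, 9 held a pair. A match of letters is a description and not a binding site.

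Cryab was by far the most abundant of the 5 genes and made up between 71.9% and 81.5% of their summed FPKM in each library. Its mean level exceeded that of 93.3% of tested genes in the young group, 92.4% in the middle-aged control group and 94.4% in the quercetin group. In the young group the order by mean was Cryab, Hspb1, Hspb8, Bag3 and Hspb6, with overlapping libraries for Hspb1 and Hspb8. In the middle-aged control group Hspb8 stood above Hspb1 in every library, and Hspb1 overlapped with Bag3. In the quercetin group Hspb1 and Hspb8 overlapped again. Hspb6 had the lowest mean in all 3 groups, above only 8.79% of tested genes in the middle-aged controls and 6.34% after quercetin.

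**Figure D1:**
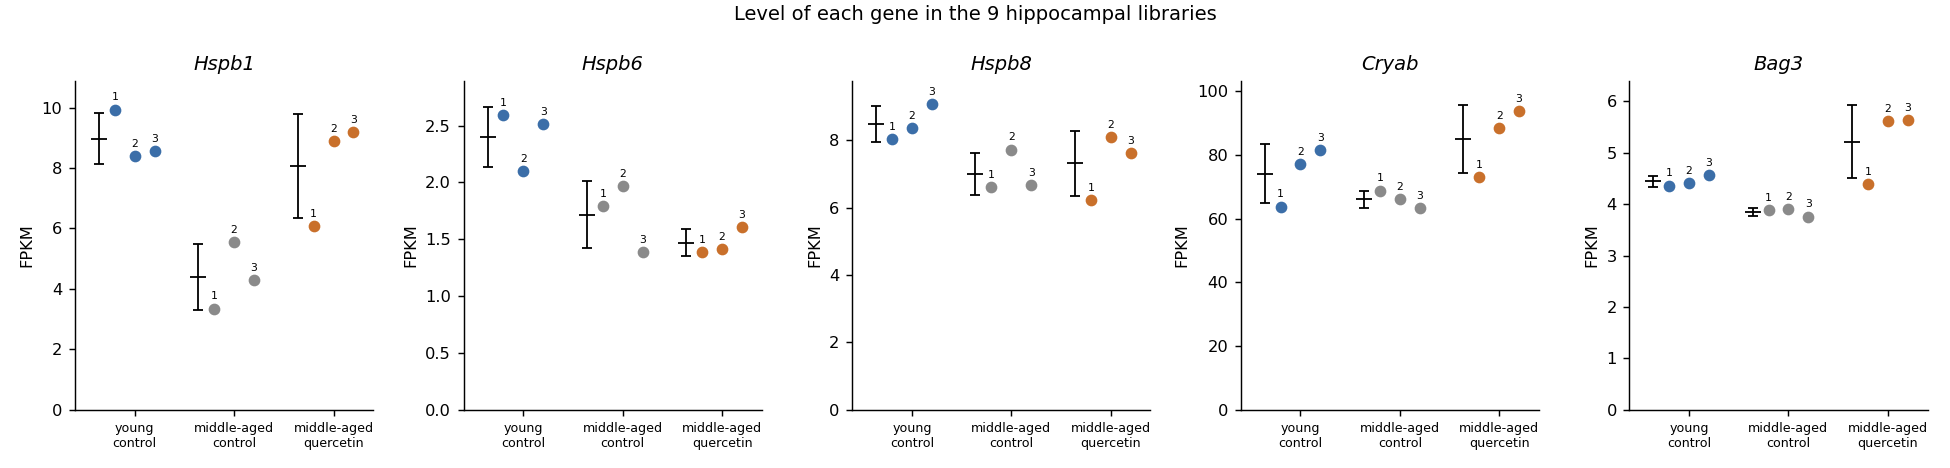
FPKM of the 5 genes in each library (points, numbered by replicate), with the group mean and SD as bars at the left of each group, n = 3. Hspb1 lies between 3.35 and 5.55 FPKM in the middle-aged controls and at 6.07 FPKM or above in all other libraries, while Hspb6 is highest in the 3 young libraries.

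With age, all 5 genes had lower mean levels in the middle-aged control than in the young group, and none passed the test across all genes (limma, Benjamini-Hochberg adjusted p under 0.05; 0.230% of tested genes passed). The libraries did not overlap for Hspb1, Hspb6, Hspb8 and Bag3, whereas 9.41% of all tested genes were lower without overlap. At an unadjusted p under 0.05 there were 3 lower genes, Hspb1, Hspb6 and Hspb8, against 6.63% of tested genes. The median log2 fold change of the 5 was -0.25, against -0.00492 over all tested genes. An F test over the 3 groups called none of the 5 genes and 0.367% of all tested genes, and the smallest adjusted p among the 5 was 0.0704 for Hspb1 (limma).

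Hspb1, also known as Hsp27 or Hsp25, a chaperone that also stabilises actin filaments, had the largest difference. Its level in the young libraries was 9.93, 8.40 and 8.56 FPKM, against 3.35, 5.55 and 4.28 FPKM for the older controls. Every young library was above every middle-aged control, and the mean was 2.04 times higher in the young group. On the log2(FPKM + 1) scale the difference was -0.90 (standard error 0.159, 95% interval -1.25 to -0.55, adjusted p = 0.0555 from limma), larger in size than that of 99.9% of tested genes. The call depended on the libraries in the fit: without middle-aged control 2 the log2 fold change was -1.05 (adjusted p = 0.0249 from limma), and without middle-aged quercetin 1 it stayed at -0.90 with an adjusted p of 0.0242. Over all alternatives the adjusted p from limma ranged from 0.0242 to 0.191.

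Hspb6, or Hsp20, is known in smooth muscle as a phosphorylated regulator of relaxation. Young libraries had 2.59, 2.10 and 2.51 FPKM and the older controls 1.79, 1.97 and 1.39 FPKM. The young libraries were all above the middle-aged controls, by a narrow gap. On the log2 scale the difference was -0.33 (standard error 0.101, with an adjusted p of 0.232 from limma), and the added pseudocount understates the change of a gene at this level.

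Hspb8, or Hsp22, had 8.03, 8.36 and 9.07 FPKM in the young libraries against 6.62, 7.73 and 6.68 FPKM for the older controls. These groups were apart, by -0.25 on the log2 scale (limma, standard error 0.0893, adjusted p = 0.298). Its highest level was in young control 3, the library richest in choroid plexus transcripts. Across the 9 libraries Hspb8 also followed the summed level of 7 meningeal fibroblast markers (Pearson r = 0.78) and that of choroid plexus markers (r = 0.60). The meningeal markers did not move together. In young control 3 Igfbp2 had 44.59 FPKM, against 17.04 and 16.59 FPKM in the other young libraries. Col1a1, Col1a2, Lum, Ogn and Slc6a13 were lowest of the young group in that library, and Dcn lay between the others. The meningeal sum of young control 3 thus rested on Igfbp2. These correlations are descriptions over libraries that share the FPKM scaling, and the part of these tissues in the level of Hspb8 was not tested.

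Bag3 had 4.36, 4.41 and 4.57 FPKM in the young libraries and 3.89, 3.91 and 3.76 FPKM in the older controls, without overlap and with little spread within each group. The log2 difference was -0.17 (limma, standard error 0.0810, adjusted p = 0.444). Cryab, the alpha-B crystallin, had 63.8, 77.0 and 81.5 FPKM in the young libraries against 68.8, 66.0 and 63.3 FPKM for the older controls. These groups overlapped, since young control 1 lay among the older controls, and the log2 fold change of -0.16 had a 95% interval from -0.37 to 0.06 that included 0.

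With quercetin the 5 genes went different ways. Hspb1, Cryab and Bag3 were higher in every quercetin library than in every middle-aged control library, Hspb8 overlapped, and Hspb6 was slightly lower on average. None passed the test across all genes, which 0.168% of tested genes did. A higher level without overlap was found for 8.97% of all tested genes. At an unadjusted p under 0.05 the higher genes were these same 3, against 6.98% of tested genes. The median log2 fold change was 0.35, against 0.00609 over all tested genes. The comparison shares its middle-aged control libraries with the comparison by age, so a low or high value in these libraries enters both.

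Hspb1 had 6.07, 8.90 and 9.18 FPKM in the quercetin libraries, 1.83 times the middle-aged control mean. On the log2 scale this was 0.75 (limma, standard error 0.159, 95% interval 0.40 to 1.10, adjusted p = 0.113). Quercetin 1 was the lowest of its group for all 5 genes, and for Hspb1 it stood close to the highest older control, at 6.07 against 5.55 FPKM. Bag3 had 4.39, 5.61 and 5.64 FPKM, and its quercetin mean was 1.35 times the middle-aged control mean. The log2 difference was 0.35 (limma, standard error 0.0810, adjusted p = 0.132), and without quercetin 1 it was 0.45 (adjusted p = 0.0487 from limma), the only setting of the alternatives in which Bag3 passed.

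Cryab had 73.0, 88.4 and 93.7 FPKM in the quercetin libraries, 1.29 times the middle-aged control mean, or 0.35 on the log2 scale (limma, standard error 0.0985, adjusted p = 0.211). All 3 libraries lay above the middle-aged controls. The summed level of 10 oligodendrocyte markers, led by the myelin gene Mbp, moved with Cryab over the 9 libraries (Pearson r = 0.78), and did not separate the groups: it was 1751 to 2044 FPKM in the young, 1867 to 2015 FPKM in the middle-aged control and 1740 to 2193 FPKM in the quercetin libraries. Set against this sum, in a ratio chosen after its values were seen, Cryab had 4.20, 4.25 and 4.27 FPKM per 100 FPKM of markers in the quercetin libraries. In the middle-aged controls it had 3.41, 3.50 and 3.39, and in the young libraries 3.64, 3.77 and 4.01. The 3 groups did not overlap in this ratio, and the quercetin libraries, which spread from 73.0 to 93.7 FPKM in the level itself, were nearly equal. An exact permutation test of each pair of groups (two-sided) gave p = 0.10, the smallest that 3 against 3 allows. Any 3 against 3 without overlap gives this value, so the test adds nothing to the separation seen. With Mbp left out of the sum, also a choice made after seeing the data, quercetin stayed above both other groups (9.25 to 9.71 per 100), while the young (7.97 to 8.64) and middle-aged control libraries (7.58 to 7.97) nearly met, so that the separation by age depended on the markers summed.

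Hspb8 had 6.23, 8.10 and 7.62 FPKM in the quercetin libraries, a range that holds all 3 older controls, and a log2 fold change of 0.05 with a 95% interval from -0.15 to 0.25. Without quercetin 2, which carried choroid plexus transcripts, it was -0.02. Hspb6 had 1.39, 1.41 and 1.61 FPKM, overlapping with the middle-aged controls, and a log2 fold change of -0.13 with a 95% interval from -0.35 to 0.09. The mean of Hspb6 was thus lowest in the quercetin group, in which Hspb1, Cryab and Bag3 stood above the middle-aged controls.

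**Figure D2:**
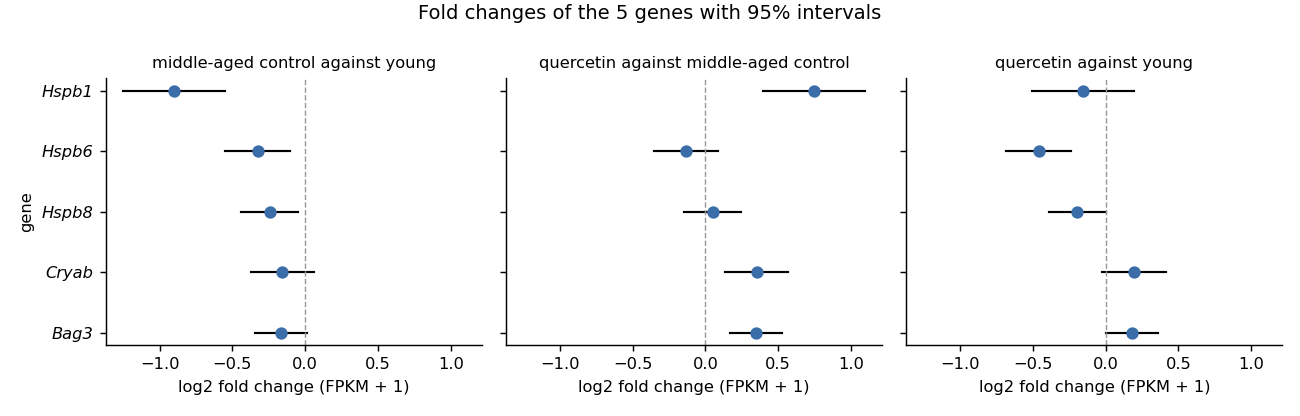
Log2 fold change of each gene on the log2(FPKM + 1) scale (points) with 95% intervals that are not adjusted for the number of genes (lines), in the 3 comparisons of groups of 3 libraries. All points are below 0 for age; Hspb1, Cryab and Bag3 are above 0 and Hspb6 is below 0 for quercetin against middle-aged control.

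Quercetin-treated middle-aged mice were also set against young mice. No member passed (0.0766% of tested genes did), and only Hspb6 was apart, lower in all 3 quercetin libraries than in any young library, as were 5.82% of tested genes. No member was higher without overlap, against 6.45% of tested genes. Hspb6 differed by -0.46 on the log2 scale (standard error 0.101, 95% interval -0.68 to -0.24, adjusted p = 0.271 from limma), and the young mean was 1.63 times the quercetin mean. At an unadjusted p under 0.05, met by 6.30% of tested genes in either direction, Hspb6 was lower and Bag3 higher, with a log2 fold change of 0.18 for Bag3 (adjusted p = 0.778 from limma). Hspb1 had a log2 fold change of -0.15 with a 95% interval from -0.50 to 0.20, so that a difference of the size seen with age lay outside it. The values of Hspb8 and Cryab were -0.20 and 0.20, with overlapping libraries. That no gene passed is no evidence of equal levels.

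Ratios within a library put these differences on a scale free of the library total. They were chosen after the levels were known. Hspb1 relative to Hspb6 was 3.83, 4.00 and 3.41 in the young libraries, 1.87, 2.82 and 3.08 in the middle-aged controls and 4.37, 6.31 and 5.70 after quercetin. All 3 groups were apart, with the quercetin libraries above the young ones. Bag3 relative to Hspb8, its partner in the chaperone complex, was 0.543, 0.527 and 0.504 in the young libraries and 0.588, 0.506 and 0.563 in the middle-aged controls, which overlapped. After quercetin it was 0.705, 0.693 and 0.740, above every other library. The exact permutation test (two-sided) gave p = 0.10 for each pair of groups that did not overlap and 0.40 for Bag3 to Hspb8 by age, and 0.10 is the smallest p this design allows. Groups of 3 without overlap always give that smallest p, so the test adds nothing to the separation seen. How many other gene pairs have ratios that separate the groups was not computed.

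**Figure D3:**
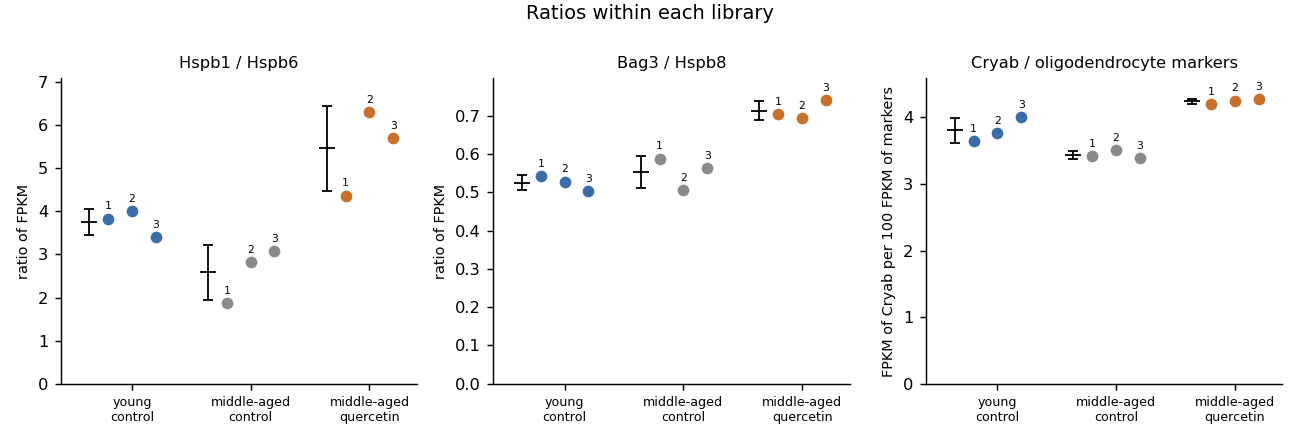
Ratio of Hspb1 to Hspb6, ratio of Bag3 to Hspb8, and FPKM of Cryab per 100 FPKM of 10 summed oligodendrocyte markers, in each library (points, numbered by replicate), with the group mean and SD as bars, n = 3. In all 3 panels the quercetin libraries are above all others, and the middle-aged controls are the lowest group for the ratio of Hspb1 to Hspb6 and for Cryab.

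Other genes of the same stress response were read from a list of 20 HSF1 targets that holds none of the 5 genes. The list includes constitutive chaperones such as Hspa8 as well as inducible ones. All 20 had log2 fold changes below 0 with age and above 0 with quercetin. Over all tested genes 52.1% were below 0 with age and 47% with quercetin. The list was chosen with earlier results of these data known. Both comparisons share the middle-aged control libraries, so their directions are not independent. By age 18 of the 20 targets were lower without overlap, against 9.41% of all tested genes, and by quercetin 18 were higher without overlap, against 8.97%. Their median log2 fold change was -0.16 with age, 0.21 with quercetin and 0.02 for quercetin against young. Of these, 3 passed the test for age (Dnajb1, Ahsa2 and Fkbp4) and 2 for quercetin (Chordc1 and Fkbp4). The count for age was 0 when young control 1 was left out, and also without the first or the third older control. The count for quercetin was 0 without any 1 of the older controls and without quercetin 2 or 3. Without young control 3 and quercetin 2, the libraries with choroid plexus transcripts, none of these calls held, with adjusted p-values from limma by age of 0.0850 for Dnajb1, 0.228 for Ahsa2 and 0.0760 for Fkbp4, and by quercetin of 0.142 for Chordc1 and 0.230 for Fkbp4. Their directions were kept.

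Fkbp4, a co-chaperone of HSP90 and steroid receptors, fell from 58.1 ± 0.965 to 48.3 ± 0.323 FPKM with age and rose to 57.8 ± 3.03 FPKM with quercetin (SD, n = 3 each; log2 fold changes -0.26 and 0.25, adjusted p = 0.0285 and 0.0443 from limma). Dnajb1, the HSP40 partner that feeds clients to HSP70, fell by 0.31 on the log2 scale with age, and Ahsa2, an activator of the HSP90 ATPase, fell by 0.35 (adjusted p = 0.0262 and 0.0464 from limma). Chordc1, another HSP90 co-chaperone, rose by 0.31 with quercetin (adjusted p = 0.0290 from limma). The stress-inducible HSP70 gene Hspa1b did not pass, at -0.71 with age and 0.54 with quercetin on the log2 scale, nor did Hspa1a (-0.40 and 0.32) or Serpinh1, a collagen chaperone (-0.58 and 0.47). By age, Hspa1a passed without young control 3 (-0.50, adjusted p = 0.0430 from limma), Hspa1b without young control 2 (-0.85, adjusted p = 0.0413 from limma) and Serpinh1 without middle-aged control 2 (-0.79, adjusted p = 0.0213 from limma). Hspa1a and Hspa1b are near-identical copies and may share reads. Hspa8, the constitutive HSP70 that works with Bag3, was far more abundant than any of the 5 genes at 771 to 964 FPKM, with log2 fold changes of -0.16 and 0.19.

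Hspb1 had larger log2 fold changes than each of these 20 targets in both comparisons, and the other 4 genes lay within their range for age. For quercetin Hspb8 and Hspb6 lay below all 20. Across the 9 libraries Hspb1 followed the targets most closely, with a median Pearson r of 0.81 over the 20 genes, from 0.21 to 0.92, the highest for Fkbp4. The median r was 0.67 for Bag3, 0.57 for Cryab, 0.43 for Hspb8 and 0.09 for Hspb6. These are descriptions over libraries that share their scaling and their groups, and a difference between them was not tested.

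**Figure D4:**
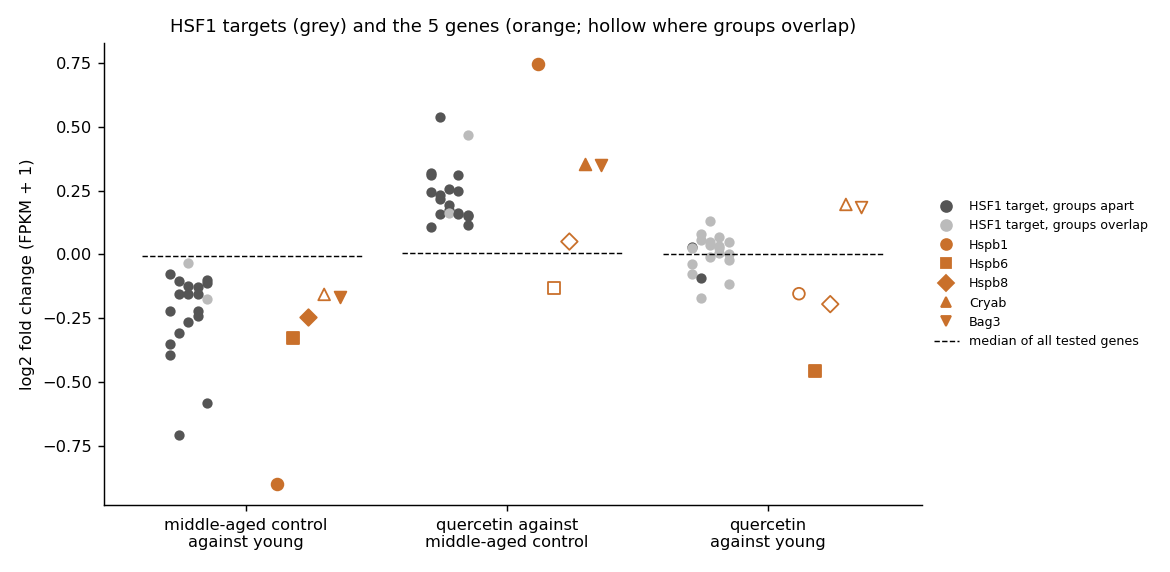
Log2 fold change on the log2(FPKM + 1) scale of 20 HSF1 targets (grey, dark where the libraries of the groups compared do not overlap) and of the 5 genes (orange, hollow where they overlap), with the median of all tested genes as a dashed line. The targets lie below 0 with age and above 0 with quercetin, and Hspb6 and Hspb8 lie below all of them with quercetin.

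The rest of both families was read in the same way. The remaining 6 of 10 small heat shock protein genes, Hspb2, Hspb3, Cryaa, Hspb7, Hspb9 and Odf1, did not pass the filter, with no value above 0.69 FPKM (Hspb2). Among the BAG genes, which share the domain that binds HSP70, Bag1 (62.8 to 70.3 FPKM) and Bag6 (53.1 to 59.2 FPKM) were the most abundant, followed by Bag5, Bag4 and Bag2. None of these 5 other BAG genes passed in any comparison, which 0.0766% to 0.230% of all tested genes did, depending on the comparison. For all 5 the libraries of every pair of groups overlapped. Only 9.41% of all tested genes were lower without overlap with age, and 8.97% higher with quercetin. The absence of such a gap in 5 genes therefore does not mark them. Bag3 was the least abundant BAG gene in 7 of the 9 libraries, and the only one with groups apart. HSF1 itself (Hsf1) had a log2 fold change of -0.10 with age, apart but with an adjusted p of 0.434, and of 0.08 with quercetin (adjusted p = 0.574 from limma). None of the list of 6 heat shock factors and regulators passed, which also held Hsf4 (4.02 to 5.11 FPKM), Ep300 (10.6 to 12.8 FPKM) and Sirt1 (5.28 to 6.43 FPKM).

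Of the partners of Bag3 in chaperone-assisted autophagy, 15 of 16 genes were tested. None passed in any comparison, which 0.0766% to 0.230% of all tested genes did. Their median log2 fold changes were -0.00602 with age and 0.00769 with quercetin, against -0.00492 and 0.00609 over all tested genes. The actin cross-linker Flna, a client of this pathway in muscle, was lower with age without overlap (log2 fold change -0.22, adjusted p = 0.265 from limma) and had -0.02 with quercetin, a value that turned to 0.05 without quercetin 1 and to 0.0064 without the second older control. Yap1, a transcriptional co-activator, had -0.05 and 0.13, and the kinase gene Lats2 lay between 14.3 and 18.1 FPKM.

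The genes whose log2(FPKM + 1) values were most like those of each member were picked by Pearson r over the 9 libraries. For Hspb1 they were Homer1, a scaffold of the postsynaptic density, the glucose transporter gene Slc2a1 and the integrin gene Itga10 (r = 0.97, 0.97 and 0.96). For Cryab they were Fgd5, Rab31 and Fastkd2 (r = 0.95 each). For Bag3 they were Zbtb12, Pex5 and Cisd2 (r = 0.95, 0.93 and 0.93), and between Bag3 and Cryab themselves r was 0.91. For Hspb8 they were Id1, Dab2 and the growth factor gene Bmp4 (r = 0.96, 0.95 and 0.95). For Hspb6 they were Fstl4, Errfi1 and Dvl3 (r = 0.94, 0.92 and 0.92), and Hspb6 had r values of -0.19 with Cryab and -0.17 with Bag3. With 13062 candidates and 9 libraries, high values of r are common, and these names are a description only.

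Marker levels of the cell types that could carry the 5 genes were compared with the same groups. The summed level of 10 mural cell markers was 69.9 to 95.1 FPKM in the young, 71.1 to 99.2 FPKM in the middle-aged control and 65.1 to 88.8 FPKM in the quercetin libraries, and that of 10 endothelial markers 96.0 to 109, 91.7 to 115 and 92.2 to 104 FPKM. Both overlapped between all groups. No marker of either list passed in any comparison, which 0.0766% to 0.230% of all tested genes did. The mural sum was led by Vtn, and its other markers differed. By age 4 of 9 tested mural markers were above 0 and 5 below 0. For quercetin against young 7 were below 0 and 2 above 0 (48.4% of all tested genes were below 0). In the young, middle-aged control and quercetin groups Tagln had means of 3.57, 2.87 and 2.23 FPKM. Myl9 had 8.17, 7.01 and 6.27 FPKM. The libraries overlapped for both genes. The summed level of 10 astrocyte markers was 932 to 982 FPKM in the young libraries and 987 to 1048 FPKM in the 6 middle-aged libraries. The astrocyte markers did not move together. In the middle-aged controls against young, 5 were above 0 on the log2 scale and 5 below 0. The mean of Gfap was 100.2 FPKM in the young and 136.2 FPKM in the middle-aged controls, and that of Gjb6 30.1 and 22.7 FPKM. The sum of 7 microglia markers was 123 to 127 FPKM in the young and 131 to 153 FPKM in the middle-aged libraries. Hspb6 had negative r values with the astrocyte and microglia sums, -0.64 and -0.71. The summed level of 9 hippocampal neuron markers was 1626 to 1719 FPKM in the young, 1704 to 1814 FPKM in the middle-aged control and 1628 to 1729 FPKM in the quercetin libraries. All 9 were below 0 on the log2 scale for quercetin against middle-aged control, as were 47% of all tested genes. None of the 9 passed the test, which 0.168% of all tested genes did. Their sum had r values of -0.60 with Cryab and -0.62 with Bag3. Red blood cell markers ranged from 14.4 to 108 FPKM without separating the groups. None of these lists had a marker at 0 in all libraries, and the part of cell composition in the levels of the 5 genes was not tested.

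The 5 genes lie at separate places in GRCm38.p6: Hspb1 (chr5:135887919-135889563), Hspb8 (chr5:116408491-116422864), Hspb6 (chr7:30552535-30555443), Bag3 (chr7:128523583-128546981) and Cryab (chr9:50745951-50756636). The RefSeq span of Cryab contains Hspb2, which reached at most 0.69 FPKM, and overlaps the end of 2310030G06Rik. Hspb8 overlaps the noncoding gene Gm36841, and Hspb6 overlaps the end of Lin37 and holds the miRNA gene Gm38670. Counting by strand is not stated, so reads from overlapping genes cannot be told apart.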

How the data were processed

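Hippocampal RNA was selected with oligo(dT) and sequenced on a BGISEQ-500. The authors deposited FPKM values with 2 decimals, 1 column per library. For their making, the methods name HISAT2, Bowtie2 and RESM, whereas TopHat2, Cufflinks and GRCm38 stand in the submitters' processing notes, and it could not be settled which made the FPKM values. Read counts were not used here.

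The 13062 genes that reached 1 FPKM in 3 or more of 9 libraries were fitted as log2(FPKM + 1) in R 4.3.3 with limma 3.58.1 (trended empirical Bayes, two-sided) over all 9 libraries, and p-values were adjusted over all tested genes by Benjamini-Hochberg at 0.05. The fit was tried on data simulated from its own fitted variances, with independent normal noise. Shifts that many genes share in 1 library, such as choroid plexus transcripts, were not simulated, so that trial does not cover them. A gene was called apart when the libraries of 2 groups did not overlap. Beside the 5 members, named genes are the other small heat shock and BAG genes, called or largest (up to 4) genes of 3 related lists, the 3 most like each member, and the most abundant of each marker list. The members and lists were chosen with earlier results of these data known. Promoters came from RefSeq (GRCm38.p6), with an entry for 4 of 5 members. The deviations of same-numbered libraries from their group means had correlations from -0.198 to 0.118, and the main fit was unpaired. Whether same-numbered libraries shared a litter, cage or batch is not stated, and these correlations cannot settle it. Alternatives were a pseudocount of 0.1, an unfiltered table, a minimum mean of 5 FPKM, 2 scalings, 6 libraries, other limma settings, a replicate block and left-out libraries. Figures were drawn with matplotlib 3.10.9.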

Additional observations from a re-analysis of the deposited data

How the results depend on the processing

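Of 279 fold changes of the 5 genes under 19 alternatives, 272 kept their direction and their side of the threshold, 4 passed the threshold that had not, and 3 changed sign near 0: Hspb8 by quercetin (-0.0181 without both libraries with choroid plexus transcripts; -0.0181 to 0.148 without 1 library) and Hspb1 for quercetin against young (-0.249 to 0.0143 without 1 library, above 0 without quercetin 1). Those that passed were Hspb1 by age with a mean of at least 5 FPKM, where Hspb6 and Bag3 were not tested (-0.90, adjusted p = 0.0366 from limma), and the left-out libraries named above. Flna by quercetin ranged from -0.105 to 0.0464 without 1 library, above 0 without quercetin 1 and without middle-aged control 2. The members called were 1 by age and 1 in the F test with a mean of at least 5 FPKM. Without 1 library they ranged from 0 to 1 by age, by quercetin and in the F test.

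The genes called by age (30) were 66 with a mean of at least 5 FPKM, 17 with no filter, 17 with no trend, 9 without both choroid plexus libraries, and 11 to 45 without 1 library. By quercetin (22) they were 1 with no filter, 2 with no trend, 13 with the replicate block, 1 without both choroid plexus libraries, and 0 to 29 without 1 library (0 without middle-aged control 1, limma, with 1525 genes at an unadjusted p under 0.05 in all libraries). For quercetin against young (10) they were 4 with 6 libraries, with no filter, with equal sums and without both choroid plexus libraries, 6 with the replicate block, and 4 to 7 without 1 library. In the F test (48) they were 7 with no filter, 30 with equal sums, 15 with no trend, 19 with the replicate block, 8 without both choroid plexus libraries, and 11 to 31 without 1 library. HSF1 targets called by age (3) were 5 with a mean of at least 5 FPKM, 1 with 6 libraries or the replicate block, 0 with no filter, no trend, equal sums or without both choroid plexus libraries, and 0 to 2 without 1 library. Those called by quercetin (2) were 1 with 6 libraries or equal sums, 0 with no filter, no trend, the replicate block or without both choroid plexus libraries, and 0 to 1 without 1 library. The replicate block changed the call of none of the 5 genes. The cause of these shifts was not tested. The depth is unknown, and what it limits could not be computed.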
